A study of Mus musculus with 8 samples.

Results

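The probes described here are 4437 oligonucleotides for long intergenic noncoding RNA (lincRNA) on a mouse expression array. They are the non-control probes whose gene name in the array files is a genome interval followed by F for the forward strand or R for the reverse strand. An interval group on chromosome 1, covering 12 probes, was left out by rule and is not analysed here. The members make up 4437 of 56605 non-control probes, and 52156 other probes served for comparison. They carry 4051 interval-and-strand names over 3221 regions, with 2221 forward and 2216 reverse probes.

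The livers came from male mice of 8 weeks or 80 weeks, and all were taken 8 h after acetaminophen, a painkiller that damages the liver at high doses. Each age had 4 samples of total RNA, labelled with the dye Cy3, 1 sample to an array. The sources used here give neither the dose nor the strain, nor whether the 4 samples of an age were 4 animals. The p-values therefore reflect only how far these samples differed from each other, and part of that may be technical. With no untreated livers analysed here, age at rest and the response to the drug cannot be told apart. The 8 arrays shared 1 slide, with the 8-week samples in row 1 and the 80-week samples in row 2, so slide row and age cannot be told apart.

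LincRNAs are RNA polymerase II transcripts from the space between protein-coding genes that have no recognised coding sequence. They are usually less abundant and more restricted to single tissues than messenger RNA. A few have known roles in chromatin regulation, nuclear structure or the control of a neighbouring gene, whereas most have none assigned.

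The interval probes were read by position and strand, so the letters of the probes show what each one can detect. Probe positions are on build mm9, per the file headers. Of the 4437 probes, 4346 had a position, each inside its own interval and on the strand of its name, and 91 had none. The first set shows 2 of the 3 probes that changed with age. Neither shares 20 or more bases in a row with a probe of another name, and they are printed without capitals. The third, A_30_P01027120, shares a run of 37 of its 60 bases with 1 of the 12 probes left out and is not printed.
A_30_P01021929 (chr9:118314102-118314161, forward strand): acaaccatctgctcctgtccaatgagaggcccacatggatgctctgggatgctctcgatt
A_30_P01019807 (chr17:32044984-32045043, reverse strand): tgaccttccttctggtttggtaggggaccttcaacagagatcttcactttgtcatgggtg

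The second set shows 2 regions probed from both strands at the same bases, where capitals mark the bases complementary to the partner probe. The chromosome 3 partners are exact reverse complements over all 60 bases, and the chromosome 13 partners over 58.
A_30_P01027675 (chr3:127111828-127111887, forward strand): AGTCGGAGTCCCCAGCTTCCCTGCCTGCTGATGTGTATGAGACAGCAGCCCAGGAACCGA
A_30_P01023003 (chr3:127111828-127111887, reverse strand): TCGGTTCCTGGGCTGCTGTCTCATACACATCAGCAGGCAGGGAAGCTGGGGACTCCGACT
A_30_P01025657 (chr13:73479856-73479915, forward strand): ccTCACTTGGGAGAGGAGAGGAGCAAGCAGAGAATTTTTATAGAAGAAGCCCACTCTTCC
A_30_P01024724 (chr13:73479858-73479917, reverse strand): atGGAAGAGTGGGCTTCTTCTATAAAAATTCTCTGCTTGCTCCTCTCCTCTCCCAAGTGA

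The third set shows interval probes that share sequence with another probe, since such probes are not independent measures. Capitals mark the shared run. For the chromosome 5 probes it is 48 bases long between the interval probes and 36 bases long in the probe for the gene 5031425E22Rik, and the probes are built of the same short repeated unit. For A_30_P01030669 it is 28 bases long and shared with a probe for Rps29, a protein of the small ribosomal subunit. For the chromosome 9 probes it is 23 and 20 bases long and shared with A_55_P2017116, named ENSMUST00000095071.5 in the array files.
A_30_P01027135 (chr5:22890069-22890128, reverse strand): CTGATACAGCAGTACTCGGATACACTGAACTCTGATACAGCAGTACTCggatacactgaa
A_30_P01028374 (chr5:22890323-22890382, reverse strand): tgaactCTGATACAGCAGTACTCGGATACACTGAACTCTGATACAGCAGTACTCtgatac
A_52_P217492 (5031425E22Rik): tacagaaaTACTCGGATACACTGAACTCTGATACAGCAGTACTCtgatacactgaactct
A_30_P01018914 (chr9:78116834-78116893, forward strand): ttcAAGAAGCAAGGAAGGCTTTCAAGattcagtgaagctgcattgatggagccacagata
A_30_P01020518 (chr9:78116774-78116833, forward strand): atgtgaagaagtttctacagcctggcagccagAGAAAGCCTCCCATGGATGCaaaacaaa
A_30_P01030669 (position not given): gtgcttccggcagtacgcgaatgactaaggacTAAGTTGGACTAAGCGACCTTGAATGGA
A_55_P1983149 (Rps29): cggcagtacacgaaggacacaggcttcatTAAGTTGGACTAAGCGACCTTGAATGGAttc

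The last sequence is that of 1 of the 10 members with the highest mean signal. Capitals mark runs of 8 or more G or C, which hold 28 of its 60 bases.
A_30_P01031448 (chr14:78936616-78936675, forward strand): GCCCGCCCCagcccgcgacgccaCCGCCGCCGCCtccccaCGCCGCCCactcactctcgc

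Array quality bears on all of the members. The 75th percentile of intensity, used to bring the arrays to 1 scale, ran from 154.7 to 352.8, lowest on 80-week replicate 1 and highest on 8-week replicate 2. No probe was saturated on any array. Over the 1327 tested members the arrays correlated at 0.94 to 0.98 within the 8-week group, 0.95 to 0.97 within the 80-week group and 0.92 to 0.98 between them. On the first principal component, which held 38.9% of the variance of these members, 8-week replicate 2 lay at -26.3 and 8-week replicate 1 at -9.96, whereas the other 6 arrays lay at 2.05 or above. Of 53 marker genes in 10 cell type lists 41 were tested, all 8 hepatocyte markers among them. None of the 41 fell past the threshold and 1 rose, Jchain of antibody-secreting cells. The summed level of the B and plasma cell list was -1.85 to -0.92 in the 8-week samples and 0.08 to 2.24 in the 80-week samples (log2, relative to the 75th percentile), the only list of the 10 whose groups did not overlap. Of its 5 genes, Cd79a was above background on 0 arrays of either age. In these bulk samples a change in the number of cells of a type and a change of RNA per cell cannot be told apart, and the part of the B and plasma cells in the results below was not tested.

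Fewer of the interval probes gave signal than other probes did. The scanner software calls a spot well above background from its intensity and the spread of the background. By that call, 2510 interval probes (56.6%) were above background on none of the 8 arrays, against 41.3% of the other probes, and 1040 (23.4%) were above it on all 8, against 40.1%. Probes seen on 1 to 7 arrays were in the minority in both sets. Those above background on at least 4 arrays were kept for tests, which left 1327 interval probes (29.9%) over 1115 regions and 24405 other probes (46.8%). The strands were alike in this, with 651 forward (29.3%) and 676 reverse (30.5%) probes kept.

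The number of interval probes above background was close in the livers of both ages. In the 8-week samples 1410, 1525, 1339 and 1287 of the 4437 probes passed the call, and in the 80-week samples 1229, 1304, 1372 and 1398. The 8-week group holds the highest value, on replicate 2, and the 80-week group the lowest, on replicate 1, and the groups overlap. The mean shares were 31.3% ± 2.32 (SD, n = 4) and 29.9% ± 1.71 (SD, n = 4), a difference of -1.45 percentage points that is smaller than either SD. The other probes differed by -1.41 points, from 47.9% to 46.5%. Without 8-week replicate 2 the difference of the interval probes was -0.44, and without 80-week replicate 1 it was -0.73. The arrays with the brightest 75th percentile in each group, 8-week replicate 2 and 80-week replicate 4, also had the largest number of interval probes above background in their group, and the part of overall brightness in these counts was not tested.

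Detection of interval probes went with their base composition. Of probes with under 40% G and C, 20.4% were kept, of those with 40 to 50% it was 26.1%, of those with 50 to 60% it was 41.6%, and of the 221 probes with 60% or more it was 63.3%. The other probes ran from 42.7% to 62.7% over the same classes. The gap between the sets was therefore widest among probes poor in G and C, and in the class of 60% or more the shares were 63.3% and 62.7%. Among the 10 members of highest mean signal, 5 held 60% or more G and C, a class that makes up 4.98% of all members. The part of base composition in the detection calls was not tested.

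Probes that share sequence with another probe were detected more often than the rest. There were 147 interval probes with a run of 20 or more bases, in the same orientation, in common with a probe of another name, and 60 of them (40.8%) were kept, against 29.5% of the 4290 without such a run. For 36 of the 147 the other probe was one for a named gene, and 22 of these (61.1%) were kept. The shares are descriptions of these probe sets, and their difference was not tested.

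Longer intervals also gave signal more often. The intervals ran from 62 to 538251 bases with a median of 7200. The share of probes kept was 21.1% for intervals up to 1 kb, 30.2% from 1 to 10 kb, 32.5% from 10 to 50 kb and 36.9% over 50 kb. By chromosome it was lowest on X, at 17.8% of 174 probes, and highest on chromosome 14, at 43.0% of 186 probes.

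Signal was often found on 1 strand of a region and not on the other. Of 830 regions with probes to both strands, 138 had probes kept on both, 167 on the forward strand alone, 185 on the reverse strand alone and 340 on neither. Probes to opposite strands that overlap in position measure this at the same bases. There were 236 such pairs, with a median overlap of 40 bases, and in 235 the overlapping letters were exact complements. In 58 pairs 1 probe was above background on all 8 arrays and its partner on none, 28 of them with signal on the forward strand and 30 on the reverse strand. In 14 pairs both were above background on all 8 arrays and in 71 pairs neither was on any.

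Some partners overlap almost fully. Of 75 pairs that overlap by 50 or more bases, 5 were kept on both strands, 13 on the forward strand alone, 10 on the reverse strand alone and 47 on neither. In 14 of the 75, 1 probe was above background on 8 arrays and its partner on 0. The chromosome 3 pair printed above is the one with full overlap among these 14: A_30_P01027675 was above background on 8 arrays and A_30_P01023003 on 0. The chromosome 13 pair lies in an interval that also holds a probe for Eprn on the reverse strand. There the reverse probe A_30_P01024724 was above background on 8 arrays, and the forward probe A_30_P01025657 on 5.

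The 26 overlapping pairs with both strands tested also gave age differences on each strand. They had the same sign in 14 of the 26 pairs, with a median gap of 0.28 (log2) between strands. The largest difference in either probe of these pairs was 1.11 in size. Of the 5 tested pairs that overlap by 50 or more bases, 4 had the same sign, with a median gap of 0.04. In the chromosome 13 pair, 1 of these 5, the forward probe differed by -0.70 and the reverse probe by -0.05.

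The comparison of 80-week with 8-week samples asked which interval transcripts differed in level with age 8 h after the drug. Of the 1327 tested probes 3 rose and 0 fell at an adjusted p under 0.05 (limma, Benjamini-Hochberg over all 25738 tested probes of the array). One of the 3, A_30_P01027120, was kept for tests through its 80-week arrays alone, so its being called different is partly set by the filter. Another, A_30_P01021929, was above background on only 2 arrays at 8 weeks and would not have been kept without its 80-week arrays. Its call too is partly set by the filter. The share that rose, 0.226%, stands beside a background of 0.284% of all tested probes, and the share that fell, 0%, beside 0.0311%. At an unadjusted p under 0.05, 54 interval probes (4.07%) were higher and 50 (3.77%) lower, against 7.7% and 6.39% of all tested probes. The groups did not overlap for 25 higher (1.88%) and 28 lower (2.11%) interval probes, against 4.45% and 3.69%, and a difference of at least 2-fold besides was seen for 7 (0.528%) and 6 (0.452%), against 1.96% and 0.855%. The median difference was 0.04 (log2; quartiles -0.17 and 0.27) for interval probes and 0.01 (-0.27 and 0.30) for other probes. The sign of the interval median was not stable. It was -0.06 with median scaling, -0.11 with array weights, -0.09 without 8-week replicate 2 and 0.11 without 8-week replicate 3. The count that rose was 1 without 8-week replicate 1 or without 80-week replicate 3, and the count that fell was 2 without 80-week replicate 2 and 1 without 80-week replicate 1. Without both 8-week replicates 1 and 2, which lay apart on the first principal component, 0 rose and 0 fell, and 3 probes of the whole array were still called.

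The lower share of small p-values was found at each level of signal. Among tested probes with a mean under -2 on the log2 scale, 9.94% of 362 interval probes had an unadjusted p under 0.05, against 15.9% of 3945 other probes. The shares were 7.64% and 15.7% from -2 to 0, 7.55% and 15.3% from 0 to 2, and 5.09% and 11.9% at 2 or more. The median size of the difference was also smaller for interval probes in each class, for example 0.21 against 0.31 from -2 to 0. These shares are descriptions and the difference between the sets was not tested.

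A_30_P01027120, a forward-strand probe in chr1:87343550-87362900, rose with age. Relative to the 75th percentile the 8-week samples read -4.29, -4.31, -4.93 and -4.92 (log2 intensity) and the 80-week samples -0.76, -1.85, -1.66 and -2.12. Every 80-week sample was above every 8-week sample. The probe was well above background on 0 of 4 arrays at 8 weeks and on 4 of 4 at 80 weeks, so the 8-week level is only a bound and the rise was at least 3.24-fold. It entered the test only through the group where it is high. Its adjusted p was 0.00490 (limma), and 0.00953 with no filter on dim probes. The fitted difference, 3.02 (SE 0.31), rests on 8-week readings near background and is no measure of size. With normexp background correction at an offset of 50, the difference was 0.98 (adjusted p = 0.106). The next symbol-bearing probe after the interval, 110.6 kb away, was for Sp110, a nuclear body protein, at a difference of 0.27 (adjusted p = 0.678).

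A_30_P01021929, a forward-strand probe in chr9:118291593-118324230, also rose. The 8-week samples read -3.86, -3.64, -2.61 and -3.57 and the 80-week samples -0.21, -0.26, -0.80 and -1.47. The groups did not overlap, and the probe was well above background on 2 of 4 arrays at 8 weeks and on 4 of 4 at 80 weeks. The difference was 2.73 (SE 0.36, adjusted p = 0.0144, limma), or 6.65-fold. Its 8-week arrays alone would not have passed the filter, and the adjusted p was 0.0275 (limma) with no filter on dim probes. Only 2 of the 4 readings at 8 weeks were above background, so 6.65-fold is no firm measure of size. With normexp the difference was 1.33 (adjusted p = 0.0648), and 1.30 (adjusted p = 0.0468) with quantile scaling besides. The fold thus depends on the background correction. The interval holds a probe for the noncoding gene Platr11 on the opposite strand, which was not kept for tests. Azi2, an adaptor of innate immune signalling 312.7 kb before it, differed by 0.03 (adjusted p = 0.958). The adjusted p was 0.0698 without 8-week replicate 1, 0.0602 without 8-week replicate 2 and 0.0512 without 80-week replicate 3.

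A_30_P01019807, a reverse-strand probe in chr17:32035750-32056000, also rose, with signal above background on all 8 arrays. The 8-week samples read -1.81, -2.33, -0.91 and -0.70 and the 80-week samples 1.00, 1.57, 1.57 and 2.88, with no overlap. The difference was 3.19 (SE 0.46, adjusted p = 0.0266, limma), or 9.14-fold. With normexp it was 2.42 (adjusted p = 0.0442), and 2.35 (adjusted p = 0.0404) with quantile scaling besides. The adjusted p lay between 0.0543 and 0.121 when 8-week replicate 1 or 2, or 80-week replicate 2, 3 or 4, was left out, with differences of 2.82 to 3.26. It was 0.0542 when probes above background on at least 1 array were tested.

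A second reverse-strand probe, A_30_P01023912 in chr17:32076069-32076590, lies in the same stretch, since Gm30509 and Hsf2bp are the nearest symbols on either side of both intervals. The 8-week samples read -1.62, -2.20, -1.39 and -1.63 and the 80-week samples -0.56, -0.93, -0.14 and -0.68, without overlap. Its difference was 1.13 (SE 0.25, adjusted p = 0.119) and did not pass the threshold.

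The other probes with the largest positive differences and separate groups did not pass the threshold, and 2 of them passed it under some alternatives. A_30_P01018128 in chr19:36699712-36763966, reverse strand, read -0.58, -2.49, -0.85 and 0.18 at 8 weeks and 1.94, 1.59, 1.39 and 1.91 at 80 weeks, a difference of 2.64 (SE 0.48, adjusted p = 0.0692). The adjusted p was 0.0442 with normexp, 0.0390 with normexp and quantile scaling, 0.0266 with array weights, 0.0352 without 8-week replicate 2 and 0.0355 without 8-week replicate 4. Its 80-week samples were close together, and the 8-week samples were spread with replicate 2 lowest. The interval holds Hectd2os on the same strand. The flanking genes Hectd2, a ubiquitin ligase, and Ppp1r3c, which directs protein phosphatase 1 to glycogen, differed by 0.97 (adjusted p = 0.357) and 1.00 (adjusted p = 0.435).

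A_30_P01019010 in chr11:96111499-96126224, reverse strand, lies beside Hoxb9, a homeobox transcription factor 10.2 kb away. The 8-week samples read -1.78, -1.77, -1.83 and -3.05 and the 80-week samples 0.24, 0.47, -0.14 and -0.77, a difference of 2.06 (SE 0.36, adjusted p = 0.0609). The adjusted p was 0.0438 with median scaling and 0.0351 with array weights. The groups did not overlap, and 8-week replicate 4 was the lowest array.

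A_30_P01025290 in chr6:35201798-35217831, reverse strand, had the tightest 8-week group of this set. The 8-week samples read -0.40, -0.46, -0.48 and -0.28 and the 80-week samples 0.00, 0.73, 0.54 and 0.62, a difference of 0.88 (SE 0.21, adjusted p = 0.146). On the opposite strand of the same interval 1810058I24Rik has 2 probes, of which A_51_P416613 rose by 1.5 (adjusted p = 0.0456, limma) and A_52_P477649 differed by 0.62 (adjusted p = 0.294). The remaining members of this set, A_30_P01026536, A_30_P01019779 and A_30_P01020307, differed by 1.53, 0.88 and 0.87. The first lies between Tnfsf18 and Fasl, ligands of the tumour necrosis factor family, and the second after Pnpla8, a phospholipase.

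Among the 10 largest negative differences with separate groups, the chromosome 5 repeat probes printed above had the lowest adjusted p-values. A_30_P01027135 read -0.96, -1.71, -1.45 and -1.68 at 8 weeks and -3.83, -2.30, -3.38 and -3.47 at 80 weeks, a difference of -1.80 (SE 0.33, adjusted p = 0.0740), or -2.11 (adjusted p = 0.0192) without 80-week replicate 2. A_30_P01028374 read -0.50, -1.46, -1.44 and -1.48, then -2.94, -2.85, -4.95 and -3.43, a difference of -2.33 (SE 0.46, adjusted p = 0.0936). Each was above background on 4 of 4 arrays at 8 weeks and on 1 of 4 at 80 weeks, and the groups did not overlap. Most 80-week readings were thus not above background, and the differences are no firm measure of size. Both probes were kept only with the group where they are high. The call of A_30_P01027135 without 80-week replicate 2 is therefore partly set by the filter.

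The readings of A_30_P01027135 and A_30_P01028374 are not independent, since the probes share 48 bases. Both lie over the noncoding gene 5031425E22Rik on its own strand. Its probe A_52_P217492 differed by -2.53 (adjusted p = 0.0782) and its probe outside the repeat, A_55_P1959560, by -1.04 (adjusted p = 0.215). A further interval probe of that strand, A_30_P01030591 in chr5:22928221-22939127, differed by -0.54 (adjusted p = 0.343). Kmt2e, which encodes a chromatin protein 45.1 kb beyond, differed by -0.31 (adjusted p = 0.432).

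The other 8 of these 10 had adjusted p-values from 0.154 to 0.301. A_30_P01022120 in chr13:22110479-22116629, reverse strand, read 2.58, 1.35, 0.73 and 1.16 at 8 weeks and -0.93, 0.55, -2.11 and -0.51 at 80 weeks, a difference of -2.21 (SE 0.56, adjusted p = 0.180), with 80-week replicate 2 next to the 8-week samples. A_30_P01031737 in chr3:51138643-51146693, forward strand, read 1.59, 1.15, 0.66 and 0.64, then -0.13, 0.33, -0.27 and -0.33, a difference of -1.11 (adjusted p = 0.154). A_30_P01032180 in chr5:74487385-74497428, forward strand, read 2.31, 2.59, 1.18 and 1.11, then 0.59, 0.73, 0.80 and 0.67, a difference of -1.10 (adjusted p = 0.260). In the last 2 of these, 8-week replicates 1 and 2 were the highest arrays.

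A_30_P01027813 in chr10:82074600-82085425, forward strand, is complementary over 38 bases to a probe for 1190007I07Rik on the other strand. The 8-week samples read -2.65, -2.53, -1.31 and -1.92 and the 80-week samples -2.86, -2.66, -3.23 and -4.28, a difference of -1.15 (SE 0.41, adjusted p = 0.296). The gene's probe A_52_P598634 differed by 0.01 (adjusted p = 0.994). The last 4, A_30_P01023804, A_30_P01019634, A_30_P01019302 and A_30_P01018770, differed by -0.97, -0.86, -0.69 and -0.62.

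Only 2 probes were above background on all 4 arrays at 8 weeks and on none at 80 weeks, and neither passed the test. A_30_P01019383 in chr3:65729664-65731697, beside the cyclin gene Ccnl1, was at least 1.05-fold lower at 80 weeks (adjusted p = 0.330), and A_30_P01019769 in chr5:144517700-144526071 at least 1.11-fold lower (adjusted p = 0.397). Their readings lay near the background, and the groups overlapped.

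None of the 10 members of highest mean signal passed the test. Among them the difference ran from -0.71 to 0.16, with adjusted p-values from 0.359 to 0.982, and all 10 were above background on all 8 arrays. The largest difference was that of A_30_P01027122 in chr1:193875525-193978800, reverse strand, an interval that also holds probes of Rcor3, a partner of a chromatin demethylase. A_30_P01031448 matches at least 40 bases of the promoter window of Akap11, which encodes an anchor of protein kinase A, in the opposite orientation, and differed by -0.05, beside 0.00 for the Akap11 probe. A promoter window covers the bases just before and after a RefSeq gene start. In all, 71 interval probes matched such a window, of which 23 (32.4%) were kept for tests, against 29.9% of the other interval probes.

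The age differences of the 2 strands of a region were compared next. Over the 138 regions with tested probes on both strands, 81 had differences of the same sign, the median gap between strands was 0.30, and the correlation was 0.24 (Pearson) and 0.27 (Spearman). In 20 of them 1 strand had an unadjusted p under 0.05 and in 0 both did. Among single interval probes 4.07% were higher and 3.77% lower at that p, against 7.7% and 6.39% of all tested probes. Whether the counts by region differ from what those shares give was not tested, so they do not show strand-specific change. In the 8 regions with the best signal on both strands, differences ran from -0.31 to 0.48 and the lowest adjusted p was 0.410. These correlations are over regions on the same 8 arrays, with no p.

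Probes to the same interval and strand can be compared in the same way. There were 64 names with more than 1 tested probe, 138 probes in all. In 49 of the 64 all probes had the same sign, and the median range was 0.15. The range was over 1 in 2 names. In chr1:138528250-138538250, forward strand, A_30_P01026160 differed by -1.63 (adjusted p = 0.303) and A_30_P01031618 by 0.51 (adjusted p = 0.784), a sign that turned to -0.11 without 8-week replicate 2. The other was chr17:35080914-35090009, reverse strand, described with the heat shock genes below.

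Where a probe for a named gene lay inside the interval, the age differences of both could be set side by side. Of 4051 interval names, 537 held a gene probe on the same strand, 462 only on the opposite strand and 3052 none. In 111 tested pairs on the same strand, 86 had differences of the same sign, with a median gap of 0.21 and a correlation of 0.73 (Pearson) and 0.62 (Spearman). In 119 pairs on opposite strands, 77 had the same sign, with a median gap of 0.33 and a correlation of 0.27 and 0.30. Pairs share arrays and some share bases, so these values are descriptions with no p.

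The probes that follow were chosen after their values were seen, for the genes beside them, and none passed the test. Those beside Hspa1b, which encodes an inducible heat shock protein of the HSP70 family, lie in chr17:35080914-35090009, 3.37 kb from its probe. The Hspa1b probe A_66_P118021 fell by 5.50 (adjusted p = 0.0266, limma). The interval itself holds a probe for another gene, 1110038B12Rik, on the reverse strand. That probe, A_52_P31814, differed by -0.73. The forward-strand probe A_30_P01026822 read 0.30, 1.23, -1.47 and -1.17 at 8 weeks and -2.68, -1.04, -2.90 and -1.80 at 80 weeks, a difference of -1.83 (adjusted p = 0.290). On the reverse strand A_30_P01017723 read -0.04, 0.22, -2.81 and -2.59, then -4.24, -1.56, -4.69 and -2.65, a difference of -1.98 (adjusted p = 0.352), and A_30_P01022237 differed by -0.66 (adjusted p = 0.387). In the first 2, 8-week replicates 1 and 2 were above the other 6 arrays, and 8-week replicates 3 and 4 lay among the 80-week arrays.

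The adjoining chromosome 9 probes printed above lie between Gsta4, a glutathione S-transferase that detoxifies lipid peroxidation products, and Gm10639. A_30_P01018914 read 7.44, 7.46, 5.43 and 6.33 at 8 weeks and 3.22, 6.06, 2.79 and 4.45 at 80 weeks, a difference of -2.53 (SE 0.71, adjusted p = 0.229). A_30_P01020518 read 7.0, 7.17, 4.97 and 5.88, then 3.69, 5.57, 4.13 and 4.56, a difference of -1.77 (SE 0.54, adjusted p = 0.255). In both, 80-week replicate 2 overlapped the 8-week samples. Gm10639 differed by -1.78 (adjusted p = 0.237) and Gsta4 by -0.73 (adjusted p = 0.392).

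The remaining probes of this choice lie beside regulators of cell survival and division or RNA. A_30_P01033039 in chr2:128211990-128215223, reverse strand, lies 14.1 kb from Morrbid, a long noncoding RNA that controls the lifespan of myeloid cells. It read -1.06, -0.52, -2.23 and -2.54 at 8 weeks and -3.09, -2.37, -4.59 and -4.58 at 80 weeks, a difference of -2.07 (adjusted p = 0.237), and Morrbid differed by -0.54 (adjusted p = 0.255). A_30_P01033039 was above background on 4 arrays at 8 weeks and 1 at 80 weeks, so -2.07 is no firm measure of size. A_30_P01031740 in chr4:89032648-89133273, forward strand, lies 80.2 kb from Cdkn2b, an inhibitor of cyclin-dependent kinases, and differed by -0.94 (adjusted p = 0.252). In chr4:129380903-129390686, reverse strand, between probes of the RNA-binding protein gene Khdrbs1, A_30_P01021891 and A_30_P01021155 differed by -1.0 and -0.95.

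Further groups of these probes show the spread within the 8-week samples. In chr14:77511189-77522852, forward strand, A_30_P01031436, A_30_P01032293 and A_30_P01020003 differed by 1.33, 0.96 and 0.91, and 8-week replicates 1 and 2 were the lowest arrays in each. The first read -3.29, -3.11, -1.02 and -1.20 at 8 weeks and -0.96, -0.75, -1.05 and -0.52 at 80 weeks. A_30_P01030988 in chr16:90103524-90104408, reverse strand, read -1.30, -2.76, 1.41 and 1.47 at 8 weeks and 2.24, 1.11, 2.68 and 2.11 at 80 weeks, a difference of 2.33 (SE 0.88, adjusted p = 0.310). On chromosome 14, in overlapping intervals of opposite strands, A_30_P01029746 and A_30_P01028224 differed by -1.43 and -1.45, with 8-week replicates 1 and 2 highest in each. In chr12:45415565-45423519, forward strand, past Pnpla8, A_30_P01022449 and A_30_P01032936 differed by 0.82 and 0.87, beside 0.88 for A_30_P01019779 in an interval within it.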

How the data were processed

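Each sample was measured on 1 single-colour array. The deposited scanner files hold spot intensity values that were background-corrected by Feature Extraction 10.7.3.1, per the file headers. Agilent Feature Extraction 9.1 stands in the submitters' processing notes instead. The series table that the authors deposited also holds intensity values, equal to the processed signal to within 1% for 100% of 56305 single-spot probes, and so not scaled between arrays. It was an alternative here and held 0 columns of other samples.

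Processed signals were taken as log2, outlier spots were dropped, and repeat spots of a probe were averaged. The 75th percentile of the non-control probes of an array was then subtracted from it. Probes well above background on at least 4 of 8 arrays were tested with limma 3.58.1 in R 4.3.3 (lmFit, eBayes), adjusted by Benjamini-Hochberg over all tested probes, at 0.05. The script was tested on simulated data. Precision is limited by the number of arrays.

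A bound compares the brighter group's mean with a floor for the dim group. On each array the floor is the lowest value of any probe above background, or the probe's own value where that is higher. Named probes were those past the threshold, the 10 largest differences in each direction among probes with separate groups, the 10 of highest mean signal, those above background on 4 arrays of 1 group and 0 of the other, 8 regions tested on both strands, and the nearest gene probes. A further 20 were chosen after their values were seen. One probe that the naming rule picks is not reported here by itself. The members and lists were chosen with earlier results of these data known. Gene names were matched to RefSeq symbols of GRCm38.p6, and promoter and hairpin sequences are RefSeq's. Gene structure on mm9 was not used here, so exons and introns are not given.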

Additional observations from a re-analysis of the deposited data

Results flagged for a closer look

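In groups of 4 arrays, 1 array stood far from the other 3 for 9 of 132 groups examined among the named probes and the detection shares, or 6.82%, where chance gives about 5%. In 5 of the 9 it was 8-week replicate 2, the low one each time. It read 7.63 on A_30_P01020570, where the others lay at 8.53 to 8.60 (log2 intensity relative to the 75th percentile), and 6.89 on A_30_P01026230 (7.89 to 8.07). It read 6.72 on A_30_P01024724 (7.87 to 8.00), 6.96 on A_30_P01024297 (8.01 to 8.22) and 3.99 on A_30_P01032549 (5.40 to 5.64). This array also had the highest 75th percentile of intensity, 352.8, and no saturated probe, and the part of either in these values was not tested. The other arrays that stood apart were 8-week replicate 4 at -3.05 on A_30_P01019010, 8-week replicate 1 at -0.50 on A_30_P01028374, 80-week replicate 2 at 3.57 on A_30_P01021530 and 80-week replicate 1 at 5.32 on A_30_P01023400.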

How the results depend on the processing

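The alternatives were not run for gene probes, or for interval probes named only for high mean signal or for signal on both strands. Among the other named probes with differences given, directions held under the alternatives run, apart from A_30_P01031618. Its 0.51 became -0.10 with array weights and lay between -0.11 and 1.08 when 1 array was left out. The count of interval probes that rose, 3, was 1 when signal on all 8 arrays was required, 5 with array weights and 1 to 4 with 1 array left out. It was 0 without both 8-week replicates 1 and 2, an alternative chosen after seeing the data that left 3 calls over all tested probes. The count that fell, 0, was 1 with array weights (A_30_P01020075), and 0 to 2 with 1 array left out (A_30_P01028216, A_30_P01027135 and A_30_P01017830). With every probe above background on at least 1 array tested, A_30_P01030169 differed by 3.36 (adjusted p = 0.0235, limma). It was above background on 0 arrays at 8 weeks and 3 at 80 weeks. It thus entered that test only through the group where it is high, and its call is partly set by the filter. Its 8-week readings were not above background, so 3.36 is no measure of size. Same-numbered samples were not treated as pairs. Their deviations correlated at 0.03, 0.14, 0.11 and 0.13, over 0.1 in 3 of 4 pairs, and 5 of 8 arrays correlated best with their own number. With the replicate block 3 rose and 1 fell, A_30_P01033039 (adjusted p = 0.0234). That probe, like A_30_P01027135, was above background on 4 arrays at 8 weeks and 1 at 80 weeks. Both were kept only with the group where they are high, so these calls are partly set by the filter. Among the 3 that rose with the block, A_30_P01019010 (adjusted p = 0.0241) was called and A_30_P01021929 (adjusted p = 0.0565) was not. The detection difference, -1.45 percentage points, was -2.05 with the looser call and between -2.23 and -0.44 with 1 array left out. Median scaling moved the median of all tested probes by -0.10. Adjusted p-values over the alternatives ran from 0.00107 to 0.106 for A_30_P01027120, 0.00756 to 0.238 for A_30_P01021929 and 0.0146 to 0.242 for A_30_P01019807. The cause of these changes was not tested. Signal near background limits the dim probes.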

Other observations

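A few interval probes were printed as 10 spots on each array, which gives the spread between spots. For A_30_P01020514, A_30_P01020937, A_30_P01021243, A_30_P01026091 and A_30_P01026611 the median SD between spots on an array was 0.05 to 0.07 (log2). The SD between the 4 samples of 8 weeks was 0.15 to 0.29 for the same probes. Between the 4 samples of 80 weeks it was 0.07 to 0.12 for 4 of them and 0.35 for A_30_P01020514. The last 2 of them measure the same interval and strand. The interval of A_30_P01020514 also holds a probe for the ribosomal RNA gene Rn18s on the same strand.

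Sequence of 5 interval probes matched a RefSeq microRNA hairpin over 20 or more bases. A_30_P01032185, on chromosome 8, holds 58 bases of the Mir8110 hairpin, shown in capitals, and was above background on all 8 arrays.
A_30_P01032185 (chr8:91548632-91548691, forward strand): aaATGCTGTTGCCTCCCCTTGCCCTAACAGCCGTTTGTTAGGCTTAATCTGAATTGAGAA
Its difference between ages was not past the threshold. A_30_P01022179 matched Mir8120 over 22 bases and A_30_P01025521 matched Mir1187 over 20 bases in the opposite orientation, and both were kept for tests. A_30_P01026554, which holds 44 bases of Mir363, and A_30_P01031395, which holds 49 bases of the hairpin Mirlet7c-2 of the let-7 family, were not kept.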
